A study of Homo sapiens with 6 samples.

Results

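The protein folding, secretion and quality control machinery of the endoplasmic reticulum (ER) was examined through 44 genes in RPMI8226 cells, an established human multiple myeloma cell line, which is a malignant counterpart of the antibody-secreting plasma cell. The 44 genes were listed by symbol for their roles in the ER, with earlier results of these data known. They comprise 3 stress sensors, 11 chaperones and co-chaperones, 5 protein disulfide isomerases, 10 genes of ER-associated degradation, 5 of the SEC61 translocon, 4 of the translocon-associated protein complex, 3 of signal peptidase and 3 of the signal recognition particle. Each symbol was matched to 1 Ensembl identifier on a primary chromosome, and all 44 were found among the 63677 genes of the count table.

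Both arms received 100 nM of protein for 6 hr, GST-PTR1 in one and the GST control in the other. GST is glutathione-S-transferase, and in GST-PTR1 it carries a domain (PTR1) of HAPLN1, a protein of the extracellular matrix. The labels give both arms as wild type, and they name 3 biological replicates for each, which made 6 libraries of strand-specific mRNA. The comparison asks which transcripts differ after the PTR1 domain is added. It covers 1 cell line, 1 dose and 1 time.

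Secreted and membrane proteins enter the ER through the SEC61 channel, where chaperones and disulfide isomerases fold them, and misfolded chains are sent back to the cytosol for degradation. When unfolded chains build up, the sensors IRE1 (encoded by ERN1), PERK (encoded by EIF2AK3) and ATF6 start the unfolded protein response. IRE1 splices the XBP1 mRNA, PERK phosphorylates the translation factor eIF2α, and ATF6 is cut in the Golgi to release a transcription factor. XBP1 and ATF6 in turn raise many chaperone and degradation genes, and plasma cells depend on this pathway to secrete antibody.

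Totals were 15202503, 20077280 and 23453473 counts for GST and 22874133, 28837431 and 44688737 for GST-PTR1. The column names carry the treatment but cannot be tied to a numbered replicate, so libraries are called the smallest, middle and largest of their treatment, and values are listed in that order. Every one of 8 plasma cell markers was counted above 3 counts, and their summed level was 3995 to 4944 CPM (counts scaled to the library's total) with GST and 3311 to 3967 CPM with GST-PTR1. Most of this sum was JCHAIN (means of 2324 and 2117 CPM) and MZB1 (952 and 776 CPM). The single markers did not move together. In the test described below SDC1, TNFRSF17 and XBP1 fell, SLAMF7 and PRDM1 rose, and CD38, MZB1 and JCHAIN did not pass. The 5 T cell markers summed to 6.18 to 6.51 CPM with GST and 2.86 to 3.63 CPM with GST-PTR1, and CD3D, CD3E and CD2 were at or under 3 counts in every library. Myeloid and stromal markers summed to at most 1.64 and 0.554 CPM. The 4 epithelial markers summed to 167 to 181 CPM with GST and 112 to 121 CPM with GST-PTR1, mostly from KRT18 and EPCAM, and their part in the results was not tested. In such bulk RNA, fewer cells of a kind and less RNA per cell cannot be told apart.

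Levels are given as RPKM, the count of a gene divided by its exon length and by its library's total. Log2 fold changes are GST-PTR1 over GST from edgeR's quasi-likelihood test with TMM factors, which set the bulk of genes to no change, and p-values are adjusted (Benjamini-Hochberg) over the 16926 genes tested. Both scales differ: on library totals alone the median fold change of all genes moved by -0.20, from 0.0065 to -0.19. The RPKM values of a gene can therefore show a decrease where the fold change shows none. All 44 members passed the filter on low counts, and the least abundant had a mean of 439 counts a library.

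Of the 44 members, 6 passed an adjusted p of 0.05 (13.6%), against 20.6% of all genes tested. SEC61B rose, where 9.15% of all genes rose. The 5 that fell were the sensors ERN1 and EIF2AK3, the degradation genes EDEM1 and HERPUD1 and the co-chaperone DNAJC3, beside 11.4% of all genes. The median fold change of the members was 0.0022, with 23 above 0 and 21 below, and their median size was 0.11 against 0.27 over all genes. No member passed the test with a change of 2-fold or more, as 1275 of all genes did, and 72.7% of the members lay within 0.25 of 0 on the log2 scale against 47.2% of all genes. The members and all genes were not matched for abundance in these contrasts, and the part of abundance in them was not tested. After scaling, the libraries of the 2 treatments did not overlap for 10 members, against 40.4% of all genes tested. With library totals no member rose and 10 fell, where 5.48% of all genes rose and 22.4% fell.

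**Figure D1:**
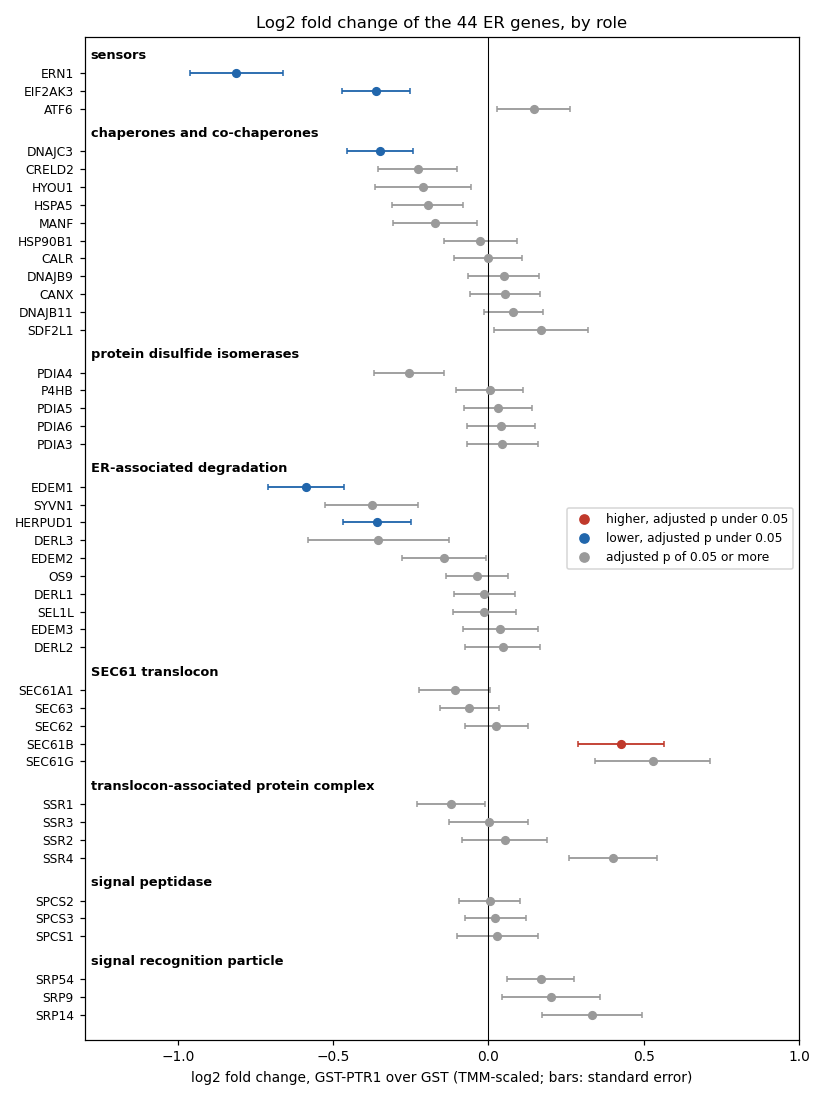
Log2 fold change (GST-PTR1 over GST, x axis, TMM-scaled) of the 44 ER genes, grouped by role, with standard errors as bars. Most points lie near 0, and ERN1 at -0.81 and SEC61G at 0.53 are the lowest and the highest.

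Of the 3 sensors, ERN1 and EIF2AK3 fell and ATF6 did not pass the test. ERN1 (ENSG00000178607, chr17:62116502-62208179, minus strand, in GRCh37 like the other gene coordinates) encodes the kinase and endoribonuclease IRE1. Its level was 16.5, 11.5 and 11.6 RPKM in the GST libraries and 7.28, 7.25 and 5.24 RPKM in the GST-PTR1 libraries. Every GST library was above every GST-PTR1 library, and the smallest GST library stood above the other two. The mean was 13.2 ± 2.86 RPKM (SD, n = 3) with GST and 6.59 ± 1.17 RPKM with GST-PTR1. The log2 fold change was -0.81 (SE 0.15, edgeR adjusted p = 0.00325). Without the smallest GST library it was -0.64 (edgeR adjusted p = 0.00302).

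EIF2AK3 (ENSG00000172071, chr2:88856259-88927094, minus strand) encodes PERK, the kinase that halts translation under ER stress. It was measured at 7.09, 6.67 and 5.99 RPKM with GST and at 4.75, 4.44 and 4.21 RPKM with GST-PTR1. The treatments did not overlap, and the log2 fold change was -0.36 (SE 0.11, edgeR adjusted p = 0.0368). This call was lost when any 1 of the 6 libraries was left out, with fold changes of -0.42 to -0.33 and adjusted p from 0.0517 to 0.13.

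ATF6 (ENSG00000118217, chr1:161736084-161933860, plus strand), the precursor of a membrane-bound transcription factor, was measured at 18.7, 21.3 and 19.4 RPKM with GST and at 17.5, 19.7 and 19.97 RPKM with GST-PTR1. The treatments overlapped, and the log2 fold change of 0.15 (SE 0.12, edgeR adjusted p = 0.396) became -0.055 with library totals. With GST, ATF6 was the most abundant of them per length and EIF2AK3 the least, and the ranges of the 3 over the GST libraries did not overlap.

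Of the 11 chaperones and co-chaperones, DNAJC3 fell and the other 10 did not pass the test. DNAJC3 (ENSG00000102580, chr13:96329393-96447243, plus strand) encodes p58IPK, a partner of the ER chaperone BiP. Its level was 11.1, 10.6 and 10.2 RPKM with GST and 6.82, 7.95 and 7.01 RPKM with GST-PTR1. The treatments did not overlap, and the log2 fold change was -0.35 (SE 0.11, edgeR adjusted p = 0.0397). Leaving out any 1 library ended this call as well, with fold changes of -0.40 to -0.28 and adjusted p from 0.073 to 0.137.

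HSPA5 (ENSG00000044574, chr9:127997132-128003609, minus strand) encodes BiP, the ER chaperone that holds the sensors inactive, and is described here although it did not pass. It stood at 368, 308 and 312 RPKM with GST and at 274, 245 and 235 RPKM with GST-PTR1. All GST libraries were above all GST-PTR1 libraries on this scale and after TMM scaling. The log2 fold change was -0.19 (SE 0.11, edgeR adjusted p = 0.246), and -0.39 with library totals (adjusted p = 0.033). HSPA5 did not pass in the other 12 of the 13 alternatives described below. A processed copy, HSPA5P1, took 15.9% as many reads as HSPA5 itself and had a fold change of -0.15 (SE 0.10, edgeR adjusted p = 0.305), so reads shared by both loci are uncertain.

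The lectin chaperones CALR and CANX, which hold glycoproteins for folding, lay close to 0. The fold change was -0.00075 for CALR (SE 0.11) and 0.053 for CANX (SE 0.11), and it was -0.026 for HSP90B1 (SE 0.12), the ER form of HSP90. The HSP40 co-chaperones DNAJB9 and DNAJB11 stood at 0.049 and 0.080. HYOU1, a nucleotide exchange factor of BiP, had -0.21 (SE 0.15), CRELD2 -0.23 (SE 0.13), the secreted MANF -0.17 (SE 0.14) and SDF2L1 0.17 (SE 0.15). Over the whole group the median was -0.026. HYOU1 and MANF were high in the smallest GST library, at 101.5 and 83.3 RPKM, where the other 2 GST libraries gave 66.0 and 71.3 RPKM for HYOU1 and 54.8 and 67.3 RPKM for MANF.

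**Figure D2:**
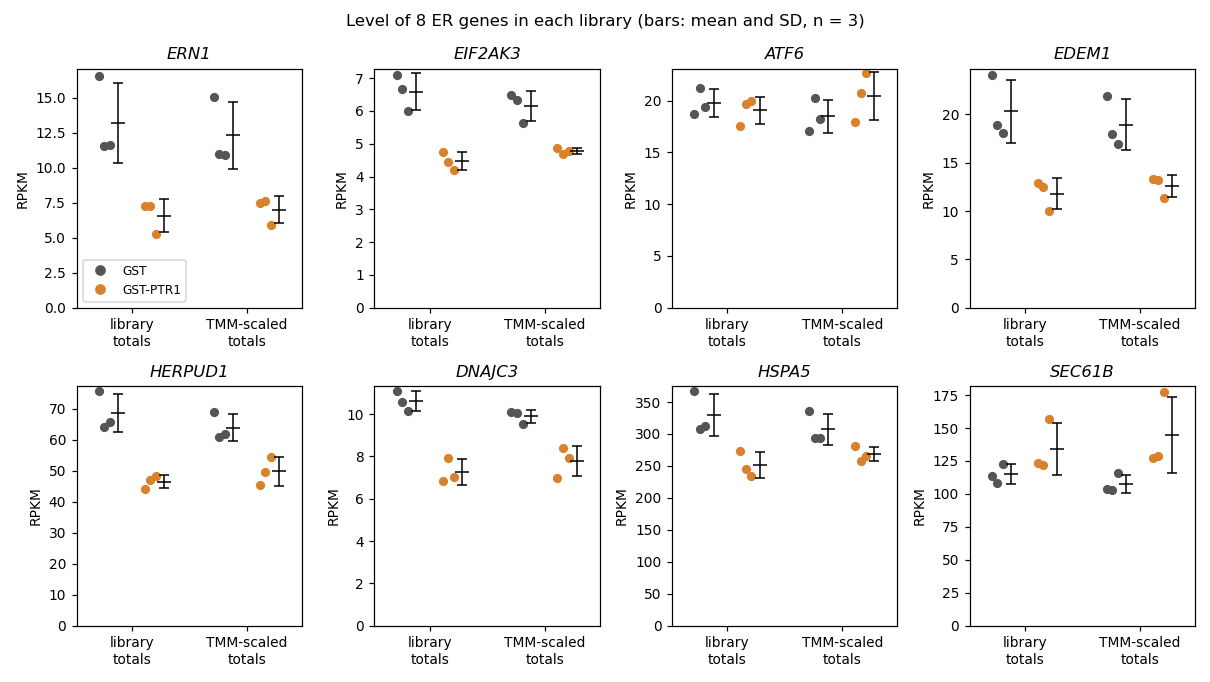
RPKM (y axis) of 8 ER genes in each of the 6 libraries, on library totals and on TMM-scaled totals (x axis), as points with the mean and SD (n = 3) beside them. ERN1, EIF2AK3, EDEM1, HERPUD1 and DNAJC3 show no overlap between GST and GST-PTR1 on either scale, whereas SEC61B overlaps on library totals.

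None of the 5 protein disulfide isomerases, which form and rearrange disulfide bonds, passed the test. P4HB (ENSG00000185624, chr17:79801035-79818570, minus strand), the most abundant of them per length, was measured at 234, 210.3 and 210.2 RPKM with GST and at 202, 187 and 184 RPKM with GST-PTR1. Its log2 fold change was 0.0046 (SE 0.11, edgeR adjusted p = 0.981) and became -0.19 with library totals, a shift of the size seen over all genes. PDIA3, PDIA5 and PDIA6 lay at 0.044, 0.031 and 0.040. PDIA4 stood apart at -0.26 (SE 0.11, unadjusted p = 0.043, edgeR adjusted p = 0.129), with 227, 185 and 189 RPKM with GST and 156, 153 and 131 RPKM with GST-PTR1. Its treatments did not overlap on either scale. With library totals its fold change was -0.45 (edgeR adjusted p = 0.0183), again a shift of the size seen over all genes. PDIA4 did not pass in the other 12 of the 13 alternatives described below. The copies of PDIA3 took 41.0% as many reads as the gene, so its value is uncertain, and 12.2% of the exon bases of PDIA5 also belong to SEC22A.

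Of the 10 genes of ER-associated degradation, EDEM1 and HERPUD1 fell and 8 did not pass. EDEM1 (ENSG00000134109, chr3:5229331-5261642, plus strand) encodes a mannosidase-like protein that picks out misfolded glycoproteins. Its level was 24.0, 18.9 and 18.0 RPKM with GST and 12.95, 12.5 and 9.97 RPKM with GST-PTR1. The treatments did not overlap, with means of 20.3 ± 3.25 and 11.8 ± 1.61 RPKM (SD, n = 3). The log2 fold change was -0.59 (SE 0.12, edgeR adjusted p = 0.00667), and -0.47 without the smallest GST library (adjusted p = 0.0124).

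HERPUD1 (ENSG00000051108, chr16:56965960-56977798, plus strand) encodes a membrane protein that organises the SYVN1 ubiquitin ligase complex. It was measured at 75.6, 64.2 and 65.8 RPKM with GST and at 44.1, 47.1 and 48.2 RPKM with GST-PTR1. The treatments did not overlap, and the log2 fold change was -0.36 (SE 0.11, edgeR adjusted p = 0.0409). The call held without the largest GST-PTR1 library (-0.41, adjusted p = 0.0296) and was lost without any 1 of the other 5 libraries (-0.39 to -0.29, adjusted p from 0.0598 to 0.133).

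Within the same pathway, SYVN1, the ubiquitin ligase itself, had -0.38 (SE 0.15, edgeR adjusted p = 0.101). It stood at 32.4, 21.0 and 25.2 RPKM with GST and 20.3, 18.5 and 14.2 RPKM with GST-PTR1, and after TMM scaling the treatments overlapped. Of its exon bases, 7.24% also belong to FAU. Without the middle GST library SYVN1 passed (-0.50, adjusted p = 0.0457). Over the 13 alternatives described below it passed in 3 and not in 10, at fold changes of -0.57 to -0.22. SEL1L, the scaffold of that ligase, lay at -0.013 (SE 0.10), the lectin OS9 at -0.037 (SE 0.099), and the channel proteins DERL1 and DERL2 at -0.013 and 0.047. DERL3 had the widest error of all members, -0.35 (SE 0.23), with 20.8 RPKM in the smallest GST library against 9.97 and 11.4 RPKM in the other GST libraries. EDEM2 and EDEM3, the relatives of EDEM1, lay at -0.14 and 0.038 without passing, and 20.9% of the exon bases of EDEM2 also belong to other loci.

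The promoter sequence of HERPUD1 is shown because HERPUD1 was the only member past the test that held an ER stress response element. Promoters (250 bases before to 50 after each start site, RefSeq, GRCh38.p14) were found for 40 members, and PDIA3, DERL1, DERL3 and SPCS1 had no entry. The letters searched on both strands were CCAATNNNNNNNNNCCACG (ERSE), ATTGGNCCACG (ERSE-II) and TGACGTGG (UPRE). The bases before the start site of HERPUD1 (chr16:56931892-56932141, plus strand, GRCh38.p14) read as follows, with ERSE-II in capitals.
HERPUD1 promoter: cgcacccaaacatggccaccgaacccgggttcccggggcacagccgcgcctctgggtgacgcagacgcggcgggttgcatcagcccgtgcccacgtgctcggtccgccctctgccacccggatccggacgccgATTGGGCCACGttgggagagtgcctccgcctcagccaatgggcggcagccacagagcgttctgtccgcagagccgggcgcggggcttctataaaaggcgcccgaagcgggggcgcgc

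ERSE was held by 6 of the 40 members (15%), which were HSPA5, HSP90B1, CALR, CANX, CRELD2 and PDIA6, and by 25 of 27305 genes with an entry, members included (0.0916%). ERSE-II was held by 3 members (7.5%), HERPUD1, HYOU1 and SDF2L1, and by 19 genes (0.0696%). UPRE was held by HYOU1, SEC62, SSR3 and SSR4 (10%) and by 253 genes (0.927%), and in HYOU1 it shared bases with an ERSE-II. These letters are known elements of ER stress genes, as many members are, so the shares are a description and not a test. The elements are given with 5 bases on each side, 5′ to 3′ on the strand of the gene. Only exact matches were kept, so the fixed letters are alike by the search, and only the N positions and flanks could differ. Capitals mark the element, and those that begin with CGTGG lie in reverse.
HSPA5 ERSE: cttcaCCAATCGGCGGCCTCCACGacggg
HSP90B1 ERSE: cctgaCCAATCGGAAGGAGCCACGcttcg
HSP90B1 ERSE: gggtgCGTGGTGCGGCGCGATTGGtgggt
CALR ERSE: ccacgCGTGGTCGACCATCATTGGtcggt
CANX ERSE: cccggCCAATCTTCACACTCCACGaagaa
CRELD2 ERSE: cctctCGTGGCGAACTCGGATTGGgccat
PDIA6 ERSE: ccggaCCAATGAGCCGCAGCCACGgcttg
HERPUD1 ERSE-II: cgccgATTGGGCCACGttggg
HYOU1 ERSE-II: tgggaCGTGGTCCAATgagta
HYOU1 ERSE-II: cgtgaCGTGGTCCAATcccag
SDF2L1 ERSE-II: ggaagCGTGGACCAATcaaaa

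Of these 9 members with ERSE or ERSE-II, HERPUD1 alone passed the test. Fold changes of the 9 ran from -0.36 to 0.17 with a median of -0.026. ERN1, EDEM1, EIF2AK3 and DNAJC3, which fell, held no exact match to any of the 3 sets of letters in this window. Near matches were not searched for. Such a match is a description of the sequence and does not show that a factor binds there.

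Of the 5 SEC61 translocon genes, 1 rose. SEC61B (ENSG00000106803, chr9:101984346-101992897, plus strand) encodes the β subunit of the channel. It was measured at 114, 109 and 123 RPKM with GST and at 124, 122 and 157 RPKM with GST-PTR1. The treatments overlapped on this scale, not after TMM scaling, and the largest GST-PTR1 library was the highest. The log2 fold change was 0.43 (SE 0.14, edgeR adjusted p = 0.0497), just inside the threshold. It was 0.26 without that library (adjusted p = 0.135) and 0.22 with library totals (adjusted p = 0.206). Leaving out any other library except the smallest GST-PTR1 library (0.51, adjusted p = 0.0307) also ended the call, at fold changes of 0.40 to 0.51 and adjusted p from 0.0583 to 0.119.

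SEC61G, the γ subunit, had the largest positive fold change of the members, 0.53 (SE 0.18), and did not pass (edgeR adjusted p = 0.0663). Its libraries gave 37.6, 47.5 and 50.6 RPKM with GST and 48.9, 49.6 and 71.1 RPKM with GST-PTR1, so that the largest GST-PTR1 library was again the highest. Without the smallest GST-PTR1 library it passed (0.65, adjusted p = 0.0284). Over the 13 alternatives described below SEC61G passed in 4 and not in 9, at fold changes of 0.29 to 0.65. The pore subunit SEC61A1 lay at -0.11 (SE 0.11), and SEC62 and SEC63, which assist translocation after translation, at 0.025 and -0.061. Of the 3 subunits of the channel, SEC61B was the one that passed the test.

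None of the 4 genes of the translocon-associated protein complex, which sits beside the channel, passed. SSR3 (ENSG00000114850, chr3:156257929-156272973, minus strand), the most abundant, was measured at 195, 212 and 213 RPKM with GST and at 169, 174 and 195 RPKM with GST-PTR1, with a log2 fold change of 0.00085 (SE 0.13, edgeR adjusted p = 0.997). SSR1 and SSR2 lay at -0.12 and 0.052. SSR4 stood at 0.40 (SE 0.14, edgeR adjusted p = 0.0668), with 70.6, 62.6 and 70.8 RPKM with GST and 78.0, 65.8 and 90.0 RPKM with GST-PTR1. Its treatments did not overlap after TMM scaling and overlapped on library totals, and it passed without the middle GST-PTR1 library (0.52, adjusted p = 0.0404). Over the 13 alternatives described below SSR4 passed in 4 and not in 9, at fold changes of 0.20 to 0.52.

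Signal peptidase, which cuts the targeting sequence from proteins entering the ER, had no member that passed. SPCS1 (ENSG00000114902, chr3:52738971-52742182, plus strand) was measured at 101, 111 and 110 RPKM with GST and at 87.6, 90.1 and 108 RPKM with GST-PTR1, with a fold change of 0.029 (SE 0.13, edgeR adjusted p = 0.893). SPCS2 and SPCS3 lay at 0.0036 and 0.023. The 3 genes of the signal recognition particle, which brings ribosomes to the ER, did not pass either, with a median of 0.20. SRP9 (ENSG00000143742, chr1:225965531-225978168, plus strand) was measured at 142, 187 and 172 RPKM with GST and at 148, 160 and 193 RPKM with GST-PTR1, with a fold change of 0.20 (SE 0.16, edgeR adjusted p = 0.382). SRP14 stood at 0.33 (SE 0.16, edgeR adjusted p = 0.163), and at 0.48 without the smallest GST-PTR1 library (adjusted p = 0.0405). Over the 13 alternatives described below SRP14 passed in 2 and not in 11, at fold changes of 0.13 to 0.48. SRP54 stood at 0.17 (SE 0.11).

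**Figure D3:**
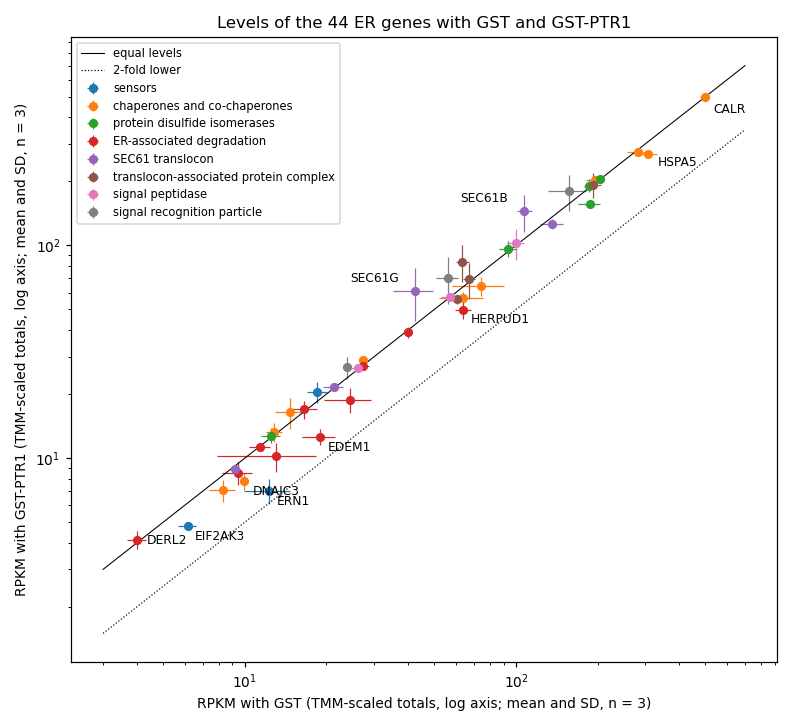
Mean RPKM on TMM-scaled totals with GST (x axis, log) and with GST-PTR1 (y axis, log) of the 44 ER genes, coloured by role, with SD bars (n = 3), a solid line of equal levels and a dotted line 2-fold lower. The points follow the line of equal levels from DERL2 to CALR, and ERN1 and EDEM1 lie farthest below it.

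Per length, CALR was the most abundant member, at 532 ± 30.3 RPKM (SD, n = 3) with GST and 465 ± 40.2 RPKM with GST-PTR1, and each of its 6 libraries was above every library of every other member. HSPA5 (329 ± 33.1 and 251 ± 20.3 RPKM) and HSP90B1 (300.4 ± 20.9 and 258 ± 11.4 RPKM) came next, and their ranges overlapped. They were followed by P4HB, CANX, SSR3 and PDIA6, whose ranges overlapped too. DERL2 was the lowest, at 4.29 ± 0.28 RPKM with GST and 3.86 ± 0.18 RPKM with GST-PTR1, and its range overlapped that of EIF2AK3. The sensors ATF6, ERN1 and EIF2AK3 ranked 30, 38 and 43 of the 44.

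Together the 44 genes took 1.61% ± 0.056 (SD, n = 3) of all counts with GST and 1.38% ± 0.034 with GST-PTR1, with no overlap between treatments. An exact two-sided permutation test of 3 libraries against 3 cannot go below p = 0.1. This share is on library totals, the scale on which 22.4% of all genes fell.

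The fold changes of the members went with exon length, and the same was seen over all genes to a smaller degree. Over the 44 members, r between fold change and log2 exon length was -0.46, and over all 16926 genes it was -0.12. These points share the same 6 libraries and are given as a description. The 3852 genes with under 1500 exon bases had a median fold change of 0.19, and the other 13074 a median of -0.035. SEC61B has 1190 exon bases and SEC61G 1842, whereas EDEM1 has 6758 and ERN1 10864. With the trend of each library with length removed, an alternative added after seeing the data, ERN1 was at -0.72 (edgeR adjusted p = 0.000818), EDEM1 at -0.51 (0.00378), SEC61B at 0.32 (0.0517), SEC61G at 0.49 (0.0383) and SSR4 at 0.45 (0.0355). The part of length in the results was otherwise not tested.

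**Figure D4:**
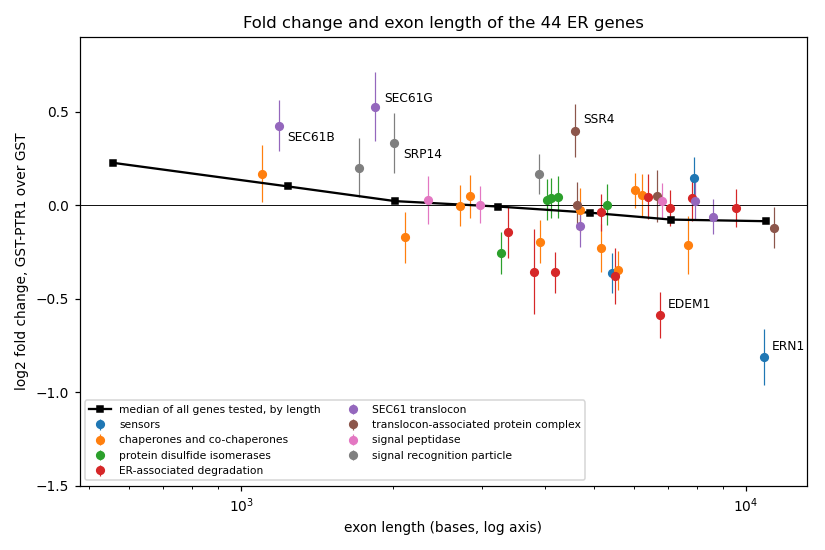
Log2 fold change (y axis, GST-PTR1 over GST, bars: standard error) of the 44 ER genes against exon length (x axis, bases, log), with the median of all genes in 7 length classes as a black line. The line falls from 0.23 below 1000 bases to -0.084 from 9000 bases, and ERN1 and EDEM1 lie well below it.

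Further genes of the pathway were counted in 6 lists set by role, also with earlier results known. Of 166 genes found, 163 were tested, 9 rose and 12 fell (12.9% in all), below the 20.6% of all genes tested, of which 9.15% rose and 11.4% fell. The median fold change of the 163 was 0.024. In the list of effectors and sensor processing 6 of 21 genes rose and 4 fell (47.6% in all). Over the other 5 lists, 0 of 31 folding and redox genes, 0 of 31 degradation genes and 1 of 31 translocon and targeting genes rose. Of 18 oligosaccharyltransferase and other glycosylation genes 1 rose, as did 1 of 31 genes of COPII, COPI and other ER exit and return. The numbers that fell were 1, 5, 1, 0 and 1 in the same order. The called share of these 5 lists was 3.23% to 16.1%, each under the 20.6% of all genes.

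Among the effectors, ATF3, a stress-induced transcription factor, stood at 3.37, 2.92 and 3.71 RPKM with GST and at 16.1, 16.4 and 17.6 RPKM with GST-PTR1. Its log2 fold change was 2.52 (SE 0.13, edgeR adjusted p = 2.54e-07), the largest over all ER genes examined. PPP1R15A (GADD34), which reverses the phosphorylation of eIF2α, rose by 1.06 (SE 0.13, edgeR adjusted p = 0.000174). The decreases were led by CREB3L2, a transcription factor related to ATF6, at -1.07 (SE 0.18, edgeR adjusted p = 0.00206), and by TRIB3, a pseudokinase, at -0.72 (SE 0.11, edgeR adjusted p = 0.000759). PPP1R15A and TRIB3, both known targets of the PERK arm, moved in opposite directions. They were named for the size of their change, and ATF4, DDIT3, ATF5 and CHAC1 of the same list are not described here. The activity of the PERK arm was not tested.

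XBP1, the substrate of IRE1, was chosen for description after its value was seen. It stood at 159, 126 and 142 RPKM with GST and at 91.7, 84.9 and 91.7 RPKM with GST-PTR1, without overlap. The log2 fold change was -0.47 (SE 0.11, edgeR adjusted p = 0.0149). Leaving out the largest GST library gave -0.46 (adjusted p = 0.0599) and leaving out the middle GST-PTR1 library -0.42 (adjusted p = 0.0833), which ended the call. Counts per gene do not separate spliced from unspliced XBP1. RTCB, the ligase that joins the cut XBP1 mRNA, rose by 1.00 (SE 0.14, edgeR adjusted p = 0.000577), from 60.6, 76.8 and 82.4 RPKM to 122, 127 and 133 RPKM. It was also chosen after its value was seen, and its values in the alternatives are not given here.

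**Figure D5:**
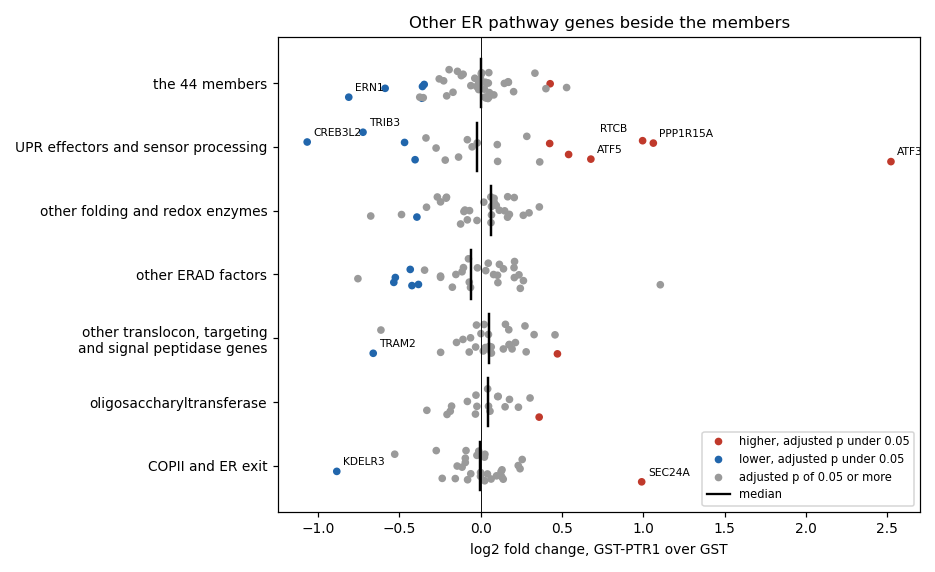
Log2 fold change (x axis, GST-PTR1 over GST) of each tested gene in the 44 members and in 6 further lists of ER genes (y axis), with the median of each list as a bar and called genes in colour. The medians lie between -0.063 and 0.062, and ATF3 at 2.52 and CREB3L2 at -1.07 stand at the ends.

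In the remaining lists the called genes were few. SEC24A, a cargo adaptor of COPII coats, rose by 0.99 (SE 0.11, edgeR adjusted p = 8.54e-05), and KDELR3, a receptor that returns ER proteins, had -0.89 (SE 0.21, edgeR adjusted p = 0.0145). TRAM2, a translocating chain protein, fell with -0.66 (SE 0.15, edgeR adjusted p = 0.00874), whereas EMC2, of the membrane protein insertion complex, rose by 0.47 (SE 0.13, edgeR adjusted p = 0.0271). In the degradation list FAM8A1 and TMEM129 had -0.53 each (SE 0.13 and 0.14, edgeR adjusted p = 0.0133 and 0.0207), FKBP14 of the folding list had -0.39 (SE 0.12, edgeR adjusted p = 0.0352), and ALG2 of the glycosylation list rose by 0.36 (SE 0.11, edgeR adjusted p = 0.0357). EMC2 and ALG2 did not pass with library totals (0.27 and 0.16, adjusted p = 0.13 and 0.297). The call of KDELR3 was lost without the middle GST-PTR1 library (-0.75, adjusted p = 0.0642). Those of TMEM129 (-0.53 to -0.41, adjusted p from 0.0506 to 0.0694) and EMC2 (0.38 to 0.54, adjusted p from 0.0509 to 0.0873) were lost without the smallest or largest GST library or the middle or largest GST-PTR1 library. That of FKBP14 was lost without any library but the smallest GST library (-0.42 to -0.33, adjusted p from 0.0771 to 0.112), and that of ALG2 without any but the smallest GST-PTR1 library (0.29 to 0.38, adjusted p from 0.0641 to 0.115).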

How the data were processed

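RNA was sequenced from RPMI8226 cells after 6 hr with 100 nM GST or GST-PTR1, with 3 libraries each. The authors deposited whole-number counts per gene, made with featureCounts 1.5.0-p1 on the Ensembl release 75 annotation of GRCh37. Reads were counted by strand, and reads of several places or several genes were left out, so values of genes with near-identical copies or shared exons are uncertain. The submitters' processing notes also name FastQC, Subread and limma, and the role of each is not given in the sources used here. Per the labels, libraries came from a strand-specific mRNA kit.

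The treatment of each library came from its column name. Within a treatment no pair of libraries agreed within sampling noise (least chi-square per gene 7.66). The test was edgeR 4.0.16 in R 4.3.3 (TMM, filterByExpr, glmQLFit and glmQLFTest). Alternatives were limma 3.58.1 and DESeq2 1.42.0, and these and edgeR were first tested on simulated data. The simulated data held as many increases as decreases and no trend with length. They cannot show how the fits handle a one-sided shift or such a trend. Other alternatives were other scalings, filters and thresholds, a fit with the length trend removed (added after seeing the data), a fit of 4 libraries with shared column numbers (also added) and leaving out each library. The p-values weigh the difference between treatments against the spread between these libraries, with that spread moderated over genes. RPKM was computed from counts, totals and exon length. Promoters came from RefSeq (GRCh38.p14). The members and lists were chosen with earlier results of these data known. Values in every library are given for the sensors, for the called members of each other role group or, where none was called, its most abundant member, and of each further list up to 2 called genes in each direction are named. Other members and XBP1 and RTCB were named after their values were seen. Protein sequences were not analysed here. Figures were made with Python 3.11.15 and matplotlib 3.10.9.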

Additional observations from a re-analysis of the deposited data

How the results depend on the processing

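ERN1 and EDEM1 fell in all 13 alternatives across genes, with fold changes of -1.01 to -0.64 and -0.78 to -0.47. The calls of EIF2AK3, DNAJC3, HERPUD1 and SEC61B were lost in 7, 8, 6 and 9 of the 13. The count of members that rose was 1, and became 0 with library totals, limma's voom, at least 10 counts in every library or an adjusted p under 0.01, 2 with the length trend removed, 3 with DESeq2's test and 4 with at least 1 count in any library. The 5 that fell became 10 with library totals, 3 with at least 1 count in any library and 2 at an adjusted p under 0.01. Leaving out 1 library gave 0 to 3 members that rose and 2 to 3 that fell. Of the other ER genes, the 9 that rose became 14 with at least 1 count in any library and 15 with the length trend removed, and the 12 that fell became 34 with library totals and 3 at an adjusted p under 0.01. Leaving out 1 library gave 6 to 9 and 4 to 11. The causes were not tested.

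The sign turned for members that had not passed: with library totals for ATF6 (-0.055), P4HB (-0.19), SSR3 (-0.20), SPCS1 (-0.17) and SRP9 (-0.00024), and with voom for SSR3 (-0.0071). It also turned on leaving out 1 library for P4HB (-0.015 to 0.038), SSR3 (-0.096 to 0.071) and SPCS1 (-0.10 to 0.11). With the search limited to bases before the start site, 12 members held an element, as with the whole window.

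The replicate numbers of the samples could not be tied to columns. The column names carry other numbers, of which 4 and 5 occur in both treatments. A fit of these 4 libraries with that number as a replicate block, added after seeing the data, gave 2 members that rose and 2 that fell, and 10 and 6 other ER genes. Without the block the same 4 libraries gave 4 and 2 members, and 11 and 8 other ER genes. The deviations of same-numbered libraries had r = -0.030 over genes, which does not show that the numbers pair them, and the block left 1 residual degree of freedom. The 2 members that fell under the block were ERN1 (-0.70) and EDEM1 (-0.51). The lowest mean was 439 counts for a member, and the median standard error was 0.11 on the log2 scale.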

Other observations

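After TMM scaling, 19 of the 44 members had their highest value in the smallest GST library, as did 30.1% of all genes tested, and 16 had it in the largest GST-PTR1 library, as did 26.4% of all genes. These 2 libraries have the lowest and the highest total. No member was highest in the largest GST or the middle GST-PTR1 library, where 9.10% and 10.1% of all genes were highest.

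Processed copies of several members were counted as well. They took 29.3% as many reads as SPCS2 itself, 22.7% for SEC63, 18.5% for SRP14 and 7.30% for SRP9. The most abundant copy of PDIA3, PDIA3P1, had a log2 fold change of -0.081 (SE 0.096, edgeR adjusted p = 0.578), beside 0.044 for PDIA3.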
